A study of Homo sapiens with 16 samples.

Results

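Trichostatin A (TSA) was examined in RKO cells, a human colon cancer cell line, by setting the 4 RKO arrays whose treatment includes TSA against the 4 RKO arrays whose treatment does not, 8 of the 16 arrays of the series. The arrays with TSA came from cells given TSA alone, PJ-34/TSA, 5-aza-dC/TSA or PJ-34/5-aza-dC/TSA, and the arrays without TSA from cells labelled control, PJ-34, 5-aza-dC or PJ-34/5-aza-dC. All cells were treated for 3 days, with TSA at 150 nM and 5-aza-dC at 0.5 µM. Each condition was measured on 1 array, so no condition had a replicate, and the p-values measure the spread between arrays around a model with 1 term for each drug. The number of arrays limits the precision. The other 8 arrays of the series, from HCT116 colon cancer cells given the same drugs, were used only for comparison.

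Histone deacetylases remove acetyl groups from lysines in histone tails and from many other proteins, and TSA blocks the zinc-dependent members of this enzyme family. Acetylated histones are typical of open chromatin at active genes, and inhibitors of the family change the RNA of many genes in both directions. 5-aza-dC, a cytidine analogue, blocks DNA methyltransferases, and PJ-34 blocks poly(ADP-ribose) polymerases.

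The labels of 2 of the 8 arrays, PJ-34 and PJ-34/5-aza-dC, did not match the signals. Among 50 probe sets picked as those with the strongest 5-aza-dC difference on the other 6 arrays, the median log2 signal over the control array was 3.93 on the array labelled PJ-34, with all 50 more than 1 above the control, and 0 on the array labelled PJ-34/5-aza-dC. It was 3.36 and 3.27 on the arrays labelled 5-aza-dC/TSA and PJ-34/5-aza-dC/TSA, 3.06 on the array labelled 5-aza-dC, and 0 on those labelled TSA and PJ-34/TSA. These values chose the probe sets for all arrays except the 2 in doubt. Neither doubtful label includes TSA, so the log2 difference for TSA is the same number whichever way they are read. The error around it is not, so each test was run with the other drug terms as labelled and with these 2 labels exchanged. Arrays are named by their labels throughout, and values are given in the order of the opening.

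A minority of the markers of colon epithelium or of other cell types reached a signal of 100 on all 8 arrays, though some were bright. Of 25 colon epithelium markers on the array, 6 were at a signal of 100 or more on all 8 arrays, and keratin 19 (KRT19) was under 50 on all 8. KRT18 averaged 15610 with TSA and 15740 without, TJP1 9529 and 9676, and EPCAM 3956 and 3964. The summed signal of the colon epithelium markers was 37630 to 38850 with TSA and 36510 to 39200 without. None of 22 blood-lineage markers reached 100 on all 8 arrays, with sums of 1576 to 3335 with TSA and 1695 to 2710 without. Of 25 fibroblast and mesenchyme markers 6 reached 100 on all 8, with sums of 29120 to 69360 with TSA and 31810 to 67170 without, and of 12 endothelial markers 2 did, with sums of 1083 to 2391 with TSA and 1006 to 1764 without. Among the mesenchyme markers, ZEB1 averaged 22420 with TSA and 24770 without, and VIM 21160 and 17710. In bulk RNA, fewer cells of a type and less RNA per cell cannot be told apart. The median signal of the arrays was 151.8 to 201.8 with TSA and 154.0 to 187.8 without (exact permutation test, two-sided, p = 0.886, where the smallest p that 4 against 4 arrays allow is 0.0286). The ratio of the 3′ to the 5′ control probe set of GAPDH was 0.932 to 0.962 with TSA and 0.891 to 1.02 without (p = 0.943, same exact test).

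TSA was associated with higher MMP1, interstitial collagenase, and lower JMJD1C, a member of a histone demethylase family, and these were the only 2 genes past an adjusted p of 0.05 in limma with the drug terms as labelled. They were 1 probe set up (0.00295%) and 1 down (0.00295%) of 33862 tested, 0.00591% in all, and 4158 probe sets had an unadjusted p under 0.05. With the 2 labels exchanged, 444 probe sets (1.31%) passed, 164 up (0.484%, 116 genes) and 280 down (0.827%, 150 genes), and 5449 had an unadjusted p under 0.05. Both genes were among the 444, and no other named gene passed as labelled. The 444 calls also need the signal filter and the variance trend of limma, since 0 remained without either one. In the rest of the text a gene is said to rise, fall or be called where it passed with the labels exchanged, and folds are from means of log2 signals after signals under 50 had been set to 50.

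The count rested on single arrays. Leaving out 1 array at a time gave 0 to 78 calls as labelled and 38 to 749 with the labels exchanged, the lowest of the second range without the array labelled PJ-34 and the highest without the control. Of the 444 calls, 30 were made in all 8 of these fits and 35 in none. With the 4 pairs that share their other drugs as a block, the counts were 9 as labelled and 229 exchanged. Without both doubtful arrays, where no reading of their labels enters, 5 probe sets passed, 4 up and 1 down. Centring each array on its median moved the median log2 difference of all probe sets from −0.03 to 0.08, and the split of the calls with it, from 164 up and 280 down to 1289 up and 228 down.

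**Figure D1:**
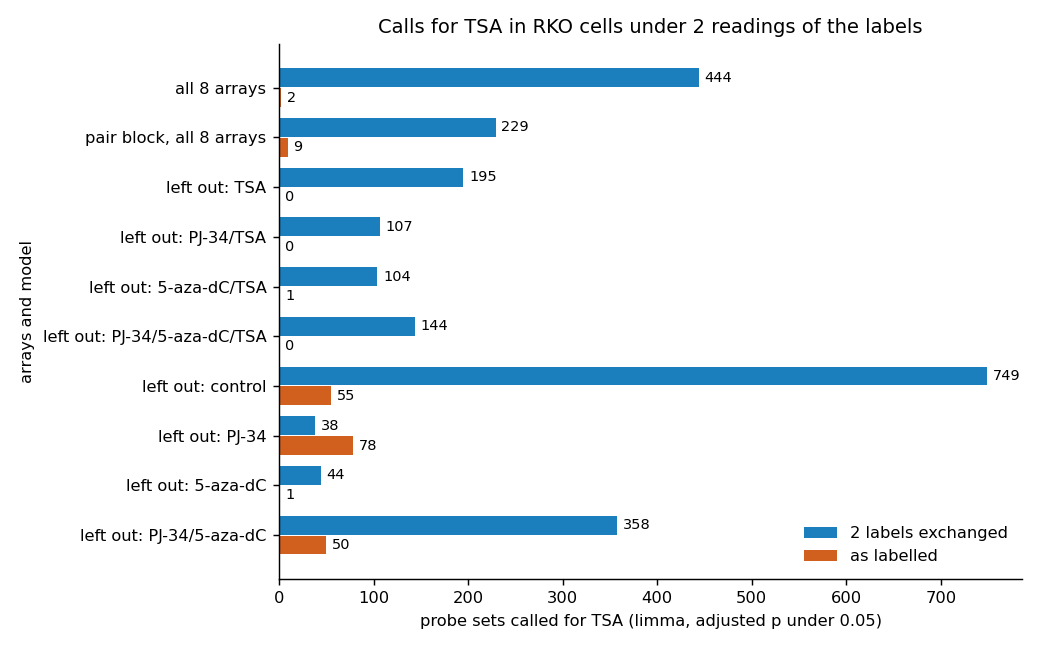
Number of probe sets called for TSA in RKO cells (horizontal axis, limma, adjusted p under 0.05) with the 2 doubtful labels exchanged (blue) and as labelled (orange), for all 8 arrays, for the pair block, and with each array left out in turn. With all 8 arrays the bars stand at 444 and 2, and without the array labelled PJ-34 at 38 and 78.

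A count that needs no reading of the other labels is that of probe sets whose 4 arrays with TSA did not overlap the 4 without. It was 998 above (2.95% of those tested) and 1483 below (4.38%), 7.33% in all. Of the 444 called probe sets, 319 did not overlap, 100 above and 219 below.

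Among genes of secreted enzymes and their inhibitors, MMP1 and TIMP1 rose in every fit with an array left out and the labels exchanged. Of the 8 named genes kept in all of those fits MMP1 had the largest log2 difference. As labelled, MMP1 was called in 4 of the 8 fits with an array left out. It had signals of 1730, 1385, 1869 and 1805 on the arrays with TSA and 398, 558, 817 and 385 on those without. The lowest array with TSA stood above the highest without. The fold was 3.28 (log2 1.71, SE 0.16, adjusted p = 0.000509 exchanged and 0.0472 as labelled), and without both doubtful arrays the log2 difference was 1.66 (adjusted p = 0.0215). TIMP1, a secreted inhibitor of metalloproteinases, had 57610, 72694, 78880 and 83031 with TSA against 46144, 58720, 55752 and 49743 without. The groups overlapped only in that the TSA array lay under the array labelled PJ-34, and the log2 difference was 0.47 (SE 0.06, adjusted p = 0.00411). SERPINE2, an inhibitor of serine proteases, had 619, 618, 861 and 838 with TSA and 186, 594, 447 and 335 without, a 2.02-fold rise (adjusted p = 0.0374). Of 18 tested genes of metalloproteinases and the plasminogen system, 2 were called up, MMP1 and TIMP1, and none down, and the median log2 difference was 0.08, beside 0.01 over all 13754 genes tested, each by 1 probe set. Of all those genes 7121 were higher and 6633 lower with TSA, and 88 were called up (0.640%) and 83 down (0.603%).

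The cytokine gene IL11 and the receptor gene IL13RA2 rose, and the cytokine gene EBI3 was called with a limit set by the signal filter. The cytokine genes IL1A (log2 −0.56, adjusted p = 0.158, no overlap) and LIF (log2 −0.36, adjusted p = 0.0639) had negative differences that did not pass. EBI3, the shared subunit of interleukin 27 and interleukin 35, had 125, 210, 362 and 302 with TSA and 19.7, 47.8, 21.4 and 11.9 without. All 4 arrays without TSA lay under 50, where signals carry no order, so the difference was at least 4.62-fold (log2 2.21, SE 0.47, adjusted p = 0.0361). The call was kept in 1 of 8 fits with an array left out. EBI3 passed the signal filter only through its 4 arrays with TSA, so its adjusted p is not independent of the filter and is no support for a rise. IL11, a cytokine of the interleukin 6 family looked at after its values were seen, had 675, 871, 1227 and 1096 with TSA and 392, 732, 641 and 333 without (log2 0.92, SE 0.17, adjusted p = 0.0223). The groups overlapped through the array labelled PJ-34. IL13RA2, a receptor of interleukin 13, had 12348, 13305, 21550 and 22086 with TSA and 7483, 10095, 10144 and 8876 without. Both arrays with 5-aza-dC and TSA stood apart as the highest, and every array with TSA lay above every one without (log2 0.88, SE 0.09, adjusted p = 0.000572). HBEGF, a growth factor that binds the EGF receptor, also named after its values were seen, averaged 2340 ± 728 with TSA and 1540 ± 428 without (SD, n = 4 each; adjusted p = 0.0156).

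The genes CD24 and CLU, which encode a cell surface and a secreted protein, rose in every fit with an array left out and the labels exchanged. CD24, a small glycoprotein of the cell surface, had 797, 951, 1185 and 1464 with TSA and 381, 708, 427 and 557 without, with no overlap (log2 1.09, SE 0.16, adjusted p = 0.00766). All 6 of its probe sets were higher with TSA and 2 were called, both of a kind (_x_at) that can bind related transcripts. CLU, clusterin, an extracellular chaperone, had 5058, 5142, 6469 and 5409 with TSA and 2501, 3586, 4084 and 3168 without. The gap between the groups was clear, with a 1.67-fold rise (log2 0.74, SE 0.10, adjusted p = 0.00503). CD44, a hyaluronan receptor, had 13243, 12894, 13003 and 13777 with TSA and 9183, 9170, 9442 and 12140 without (log2 0.42, adjusted p = 0.0279). Its groups did not overlap, 11 of its 12 probe sets were higher, 4 of them called, and none was called lower.

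**Figure D2:**
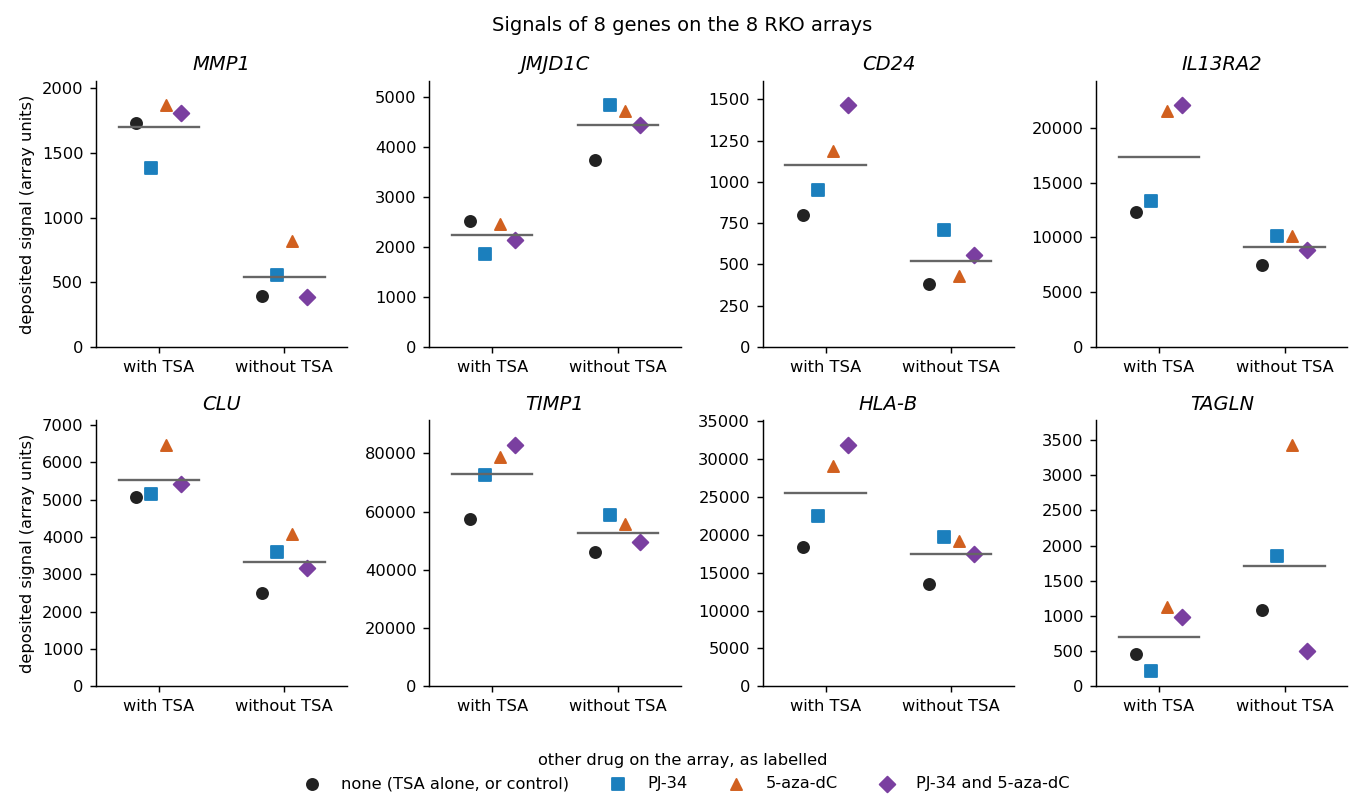
Deposited signals (vertical axes, array units, from 0) of the 8 named genes that were called in all 8 fits with an array left out, labels exchanged, on the arrays with TSA (left) and without TSA (right) in each panel. Points are single arrays, marked by the other drug on the array as labelled, and lines are means of 4 arrays. MMP1 stands between 1385 and 1869 with TSA and between 385 and 817 without, and TAGLN overlaps.

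HLA class I genes, which present peptides to T cells, stood higher as a group. All 17 tested genes of the class I presentation list had a positive difference, also under quantile normalization and median centring, with a median log2 difference of 0.27, but 3 were called up and none down. These were HLA-B, HLA-C and HLA-G. HLA-B had 18406, 22453, 29082 and 31903 with TSA and 13545, 19748, 19182 and 17417 without (log2 0.53, SE 0.07, adjusted p = 0.00528), and all 3 of its probe sets were called up. HLA-G, a class I gene best known from the placenta, had 10399, 11433, 21905 and 21280 with TSA and 6591, 10422, 9936 and 10592 without (log2 0.74, SE 0.13, adjusted p = 0.0182). Its 2 arrays with 5-aza-dC and TSA were about level and stood above all others, while the array with TSA alone overlapped those without. HLA-C averaged 54810 ± 8423 with TSA and 42850 ± 6028 without (adjusted p = 0.0279). Other probe sets for HLA-E and HLA-F, named after their values were seen, were called up at log2 differences of 0.40 (adjusted p = 0.043) and 0.44 (adjusted p = 0.0279), while the probe sets that stand for these genes in the list were not. The _x_at probe sets of this family can bind several of its members, so these calls are not independent of each other. B2M, the light chain shared by class I molecules, was at a log2 difference of 0.19 (adjusted p = 0.104) and did not overlap.

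The 100 bases before the start of HLA-B, HLA-C, HLA-F and HLA-G (RefSeq, GRCh38.p14) are shown because each gene had called probe sets that were higher with TSA. All of those were _x_at probe sets, which can bind several members of the family, so separate changes of the 4 genes are not shown. CCAAT is in capitals where it stands on the coding strand. For HLA-G, which has 3 starts in the table, the most downstream is used.
HLA-B, chr6:31357180-31357279, minus strand: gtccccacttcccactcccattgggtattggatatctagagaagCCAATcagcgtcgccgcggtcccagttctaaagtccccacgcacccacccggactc
HLA-C, chr6:31272093-31272192, minus strand: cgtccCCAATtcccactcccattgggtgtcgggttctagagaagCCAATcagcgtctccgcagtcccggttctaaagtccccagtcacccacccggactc
HLA-F, chr6:29723334-29723433, plus strand: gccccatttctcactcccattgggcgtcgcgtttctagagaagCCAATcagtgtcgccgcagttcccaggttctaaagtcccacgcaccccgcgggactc
HLA-G, chr6:29827725-29827824, plus strand: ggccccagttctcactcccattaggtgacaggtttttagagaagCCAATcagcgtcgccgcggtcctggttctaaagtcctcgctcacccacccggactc
Each of the 4 holds CCAAT 56 or 57 bases before the start, and HLA-C holds it a further time. CCAAT on either strand lay in the 250 bases upstream of 49.0% of 96 called-up genes with a sequence, 27.3% of 121 called-down genes and 34.9% of all 11033 tested genes with one (the first listed start of each gene). GGGCGG, the GC box, was in 68.8%, 66.1% and 64.1% in the same order, and TATAAA, the TATA box, in 6.25%, 4.96% and 6.22%. These shares were not tested, and the calls chose the genes.

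IFI6, an interferon-induced protein of mitochondria, was the only called gene of 31 tested interferon-stimulated genes. It had 884, 912, 1369 and 1292 with TSA and 530, 587, 716 and 285 without, with no overlap (log2 1.12, SE 0.18, adjusted p = 0.0105). The list as a whole had 23 genes higher and a median log2 difference of 0.15, and ISG15, a ubiquitin-like modifier, reached 0.29 without a call (adjusted p = 0.0577). IFI6 is printed for its 3 copies of the interferon-stimulated response element (capitals), found on either strand in 0.218% of the 11033 upstream stretches. EBI3 and IL11 are printed for TGAGTCA, an AP-1 site, found on either strand in 2.66% of them, in 5.21% of those of called-up genes and in 1.65% of those of called-down genes. These 2 motifs were searched after the values were seen.
IFI6, chr1:27672193-27672362, minus strand: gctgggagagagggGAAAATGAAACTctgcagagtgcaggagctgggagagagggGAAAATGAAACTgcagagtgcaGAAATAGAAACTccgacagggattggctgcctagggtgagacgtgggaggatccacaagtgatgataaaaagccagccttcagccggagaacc
EBI3, chr19:4229373-4229522, plus strand: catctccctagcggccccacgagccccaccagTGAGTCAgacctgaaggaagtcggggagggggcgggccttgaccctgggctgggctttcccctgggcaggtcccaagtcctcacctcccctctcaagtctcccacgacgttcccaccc
IL11, chr19:55370464-55370613, minus strand: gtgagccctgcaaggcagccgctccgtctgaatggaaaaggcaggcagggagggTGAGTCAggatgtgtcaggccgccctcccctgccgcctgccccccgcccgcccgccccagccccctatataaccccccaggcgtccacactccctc
A match describes the letters of these windows only. MMP1, CLU and IL13RA2 had no entry in the table of upstream sequences.

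Genes of the secretory pathway were among the smaller rises, and were grouped after their values were seen. The cargo receptors TMED9 and TMED3 rose by 0.44 and 0.39 on the log2 scale, the translocon-associated protein SSR4 by 0.33, and the signal recognition particle receptor subunit SRPRB by 0.39. PPIB, a cyclophilin of the endoplasmic reticulum, averaged 59633 with TSA and 47099 without (log2 0.34, adjusted p = 0.0182). EMC3 and EMC7, subunits of the complex that inserts membrane proteins, rose by 0.39 and 0.37, whereas EMC2, another subunit of it, fell by 0.35. The lysosomal enzymes TPP1, GLA and CTSC rose by 0.52, 0.44 and 0.40. Of 9 TMED genes tested, 8 were higher and 2 called up, with a median log2 difference of 0.15, and of 9 translocon genes 8 were higher and 2 called up, with a median of 0.12. The translocon direction weakened to 5 of 9 higher under quantile normalization. CALR, a calcium-binding chaperone of the same compartment, had 13385, 12299, 10375 and 14480 with TSA and 7832, 8449, 7870 and 12471 without (log2 0.48, adjusted p = 0.0407), and the array labelled PJ-34/5-aza-dC overlapped those with TSA.

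Other genes named by size that rose without overlap were GPAT3, an acyltransferase of triglyceride synthesis, at 842, 933, 674 and 528 with TSA and 520, 263, 310 and 488 without (log2 0.94, adjusted p = 0.0282), MCRIP1 (log2 0.82, adjusted p = 0.0407) and MAGT1, a magnesium transporter and part of the glycosylation machinery (log2 0.71, adjusted p = 0.0374). Beside EBI3, 2 probe sets were under 50 on all 4 arrays without TSA and at 100 or more on all 4 with it. PLAC4 had 160, 173, 122 and 212 with TSA and 12.6 to 33.3 without (adjusted p = 0.0957), and 1 of 3 probe sets of RARA, a retinoic acid receptor, had 128, 290, 117 and 110 with TSA and 7.0 to 38.5 without (adjusted p = 0.149). Like EBI3, both passed the signal filter only through the arrays with TSA, so their adjusted p is no support for a rise. One probe set with no gene symbol did the reverse. Reading silent as under 100 and expressed as 200 or more left 0 and 1 such probe sets.

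The falls included JMJD1C and other regulators of chromatin and RNA. JMJD1C had 2522, 1870, 2456 and 2143 with TSA and 3749, 4844, 4720 and 4440 without, on its probe set with the largest change. The groups stood far apart, with a 1.98-fold fall (log2 −0.98, SE 0.11, adjusted p = 0.00104 exchanged and 0.0472 as labelled). Of the 8 fits with an array left out, this probe set was called in all 8 exchanged and in 3 as labelled. All 4 JMJD1C probe sets were lower and 3 were called. On the brightest of them the signals were 6167, 5296, 7129 and 5109 with TSA and 7551, 9068, 7452 and 10084 without, and the log2 difference was −0.53 (adjusted p = 0.0431). Among 21 histone lysine demethylases it was the only one called, 18 were lower and the median was −0.11. Median centring brought that median to 0, but it also moved the median of all genes tested from 0.01 to 0.12.

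Of 25 genes in HDAC corepressor complexes, only ARID4B, a subunit of a SIN3 deacetylase complex, was called on the probe set that stands for it in the list. It had 1479, 1519, 1621 and 1476 with TSA and 2364, 2142, 2283 and 1758 without (log2 −0.48, adjusted p = 0.0454). Other probe sets of TBL1XR1, also on this list, were called down (log2 −0.308, adjusted p = 0.0474, and −0.515, adjusted p = 0.0488). The list had 17 genes lower and a median of −0.10, which median centring brought to 0.01, beside 0.12 over all genes tested. Other chromatin genes that fell, named after their values were seen, were ARID2 (log2 −0.85), a subunit of a SWI/SNF complex, ATRX (−0.63), a chromatin remodeller, CHD9 (−0.55) and PHIP (−0.38), a bromodomain protein. Of splicing-related genes named in the same way, PNISR, SCAF11 and RBM39 fell by 0.83, 0.77 and 0.60, while SUGP2, SNRNP25 and SRSF7 rose by 0.50, 0.38 and 0.33. Genes of large scaffold proteins fell too, AKAP9 by 0.71, GOLGA4 by 0.57 and TPR, of the nuclear pore basket, by 0.57, each on its called probe set with the largest change. MALAT1, a long nuclear RNA, was read by 12 probe sets, all lower with TSA under each of the 3 scalings and 5 of them called, with a median log2 difference of −0.41. On the one with the largest change it had 1571, 842, 1217 and 1331 with TSA and 1491, 2898, 2982 and 2085 without, where the TSA array lay above the control.

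The deacetylase genes themselves were not called. HDAC1 had 13781, 14910, 14091 and 13724 with TSA and 12086, 12226, 11751 and 11984 without, which do not overlap (log2 0.23, SE 0.06, adjusted p = 0.0768). The other 10 members had adjusted p of 0.318 or more, and the list had 5 higher and 6 lower with a median of −0.01, which was 0.02 under quantile normalization. None of 20 acetyltransferases and bromodomain readers was called, and 15 of them were lower. Median centring left 11 of the 20 higher, beside 9525 of all 13754 genes tested.

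The called-down genes spanned more of the genome than the others. The median genomic span (GRCh38.p14 gene records) was 73.2 kb for the 150 called-down genes and 13.3 kb for the 116 called-up genes, beside 27.3 kb for the 13739 of 13754 tested genes with a record. These medians take a gene as called if any of its probe sets was. By 1 probe set per gene, as in the groups that follow, 83 genes were called down and 88 up. With the genes in 4 groups of rising span, 47, 75, 125 and 212 genes lay below without overlap, from the shortest to the longest group, or 1.37%, 2.18%, 3.64% and 6.17%, beside 3.35% of all 13754. Above without overlap the counts ran the other way, 200, 137, 95 and 75, or 5.82%, 3.99%, 2.77% and 2.18%. The median log2 difference was 0.07, 0.03, −0.003 and −0.05 in the same order. In HCT116, whose arrays are not shared, it was 0.06, 0.06, −0.01 and −0.14. There 131, 144, 174 and 305 genes were called down and 282, 297, 187 and 81 called up, of 3099, 3231, 3260 and 3220 tested. Over all probe sets tested in HCT116, 4.83% were called down and 4.16% up. Those shares count probe sets and not genes, so they are no direct background for the gene counts. The median of the longest group minus that of the shortest on each array overlapped between the groups. It was 0.73, 0.75, 0.62 and 0.47 log2 units with TSA and 0.82, 0.59, 0.61 and 0.83 without in RKO (exact permutation test, two-sided, p = 0.486), and averaged 0.48 ± 0.13 with TSA and 0.64 ± 0.18 without in HCT116 (SD, n = 4 each; same exact test, p = 0.2). Within pairs of arrays that share their other drugs, a comparison added after the data were seen, the gap was lower with TSA in 4 of 4 pairs in HCT116 (exact sign-flip test, two-sided, p = 0.125). In RKO it was lower in 3 of 4 pairs with the labels exchanged (p = 0.25, same exact test) and in 2 of 4 as labelled (p = 0.75), and the smallest p that 4 pairs allow is 0.125. Leaving out 1 array moved the mean RKO gap of −0.07 to between −0.01, without PJ-34/5-aza-dC/TSA, and −0.11, without the array labelled PJ-34, and it was −0.03 without the array labelled PJ-34/5-aza-dC, −0.04 without the control, −0.10 without 5-aza-dC and −0.11 without PJ-34/TSA. The pattern was looked for after the values were seen. Probe sets with no gene symbol, for which no span is given, were 27.9% of the called-down and 6.71% of the called-up probe sets, beside 17.2% of all tested.

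**Figure D3:**
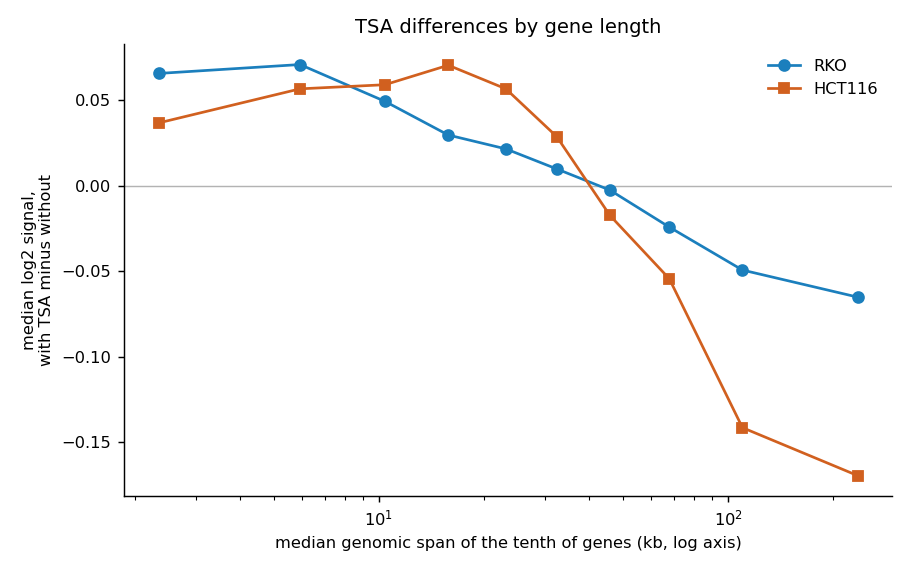
Median log2 difference (vertical axis, signal with TSA minus without) of the tested genes in 10 groups of rising genomic span (horizontal axis, median span in kb on a log axis) in RKO (circles) and HCT116 (squares). In RKO the medians run from 0.07 in the shortest group to −0.07 in the longest, and in HCT116 from 0.04 to −0.17.

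By size of change, the largest named falls were in dim probe sets. PCDHB18P, a protocadherin pseudogene, had 45.4, 77.2, 93.1 and 57.9 with TSA and 319, 322, 382 and 304 without (log2 −2.29, SE 0.38, adjusted p = 0.0142), on an _x_at probe set that can also read its relatives. PCDHB18P passed the signal filter only through the arrays without TSA, so its adjusted p is no support for a fall. LETM1, a mitochondrial inner membrane protein, had 66.3, 84.5, 132.9 and 82.1 with TSA and 280, 382, 339 and 371 without (log2 −1.95, adjusted p = 0.0194), but 1 of its other 2 probe sets went the other way. LRCH3 (log2 −1.83, adjusted p = 0.0464) was kept in 0 of the 8 fits with an array left out. CCDC91 had 463, 275, 440 and 318 with TSA and 717, 1316, 1148 and 951 without (log2 −1.47, SE 0.22, adjusted p = 0.00744) and was kept in 7. AFF4, a scaffold of the super elongation complex, fell by 1.17 (adjusted p = 0.0319) on 1 of 8 probe sets, of which 6 were lower. DGKH, a diacylglycerol kinase, fell by 1.06 (adjusted p = 0.0446) and ZNF644, a zinc finger protein, by 1.01 (adjusted p = 0.0179). TGFBR1, the type I receptor of TGF-beta, had 214, 244, 457 and 315 with TSA and 554, 704, 620 and 494 without (log2 −0.997, adjusted p = 0.0428), kept in 0 of 8 fits.

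Among cell cycle genes E2F1 fell and TYMS and CCNB1 rose. E2F1, a transcription factor of the G1 to S transition, had 615, 579, 403 and 324 with TSA and 762, 994, 1265 and 883 without, with no overlap (log2 −1.05, SE 0.23, adjusted p = 0.0384). TYMS, thymidylate synthase, a target of E2F factors, had 34560, 34806, 28425 and 30593 with TSA and 28236, 23065, 24088 and 29777 without (log2 0.29, adjusted p = 0.0282), and the groups overlapped. CCNB1, cyclin B1, rose by 0.30 (adjusted p = 0.0374). Of 43 DNA replication genes 1 was called up, TYMS, and of 34 mitosis genes 1, CCNB1, none down in either, with medians of 0.03 and 0.04. Of 16 CDK inhibitors and cyclins 1 was called up on the probe set that stands for it in the list, CCNB1, and none down, with a median of 0.05. Another probe set of CCND2, a D-type cyclin, was called up (log2 0.44, adjusted p = 0.0298). CDKN2B, the p15 inhibitor of cyclin-dependent kinases, averaged 1179 ± 88.0 with TSA and 754 ± 216 without (SD, n = 4 each) and did not overlap, at a log2 difference of 0.68 (limma, adjusted p = 0.0503). CDKN1A, which encodes the p21 inhibitor of cyclin-dependent kinases and is a standard response to deacetylase inhibitors, had 5749, 8671, 10752 and 10181 with TSA and 5167, 10033, 7910 and 5081 without (log2 0.35, adjusted p = 0.103).

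Of 18 tested genes known to respond to deacetylase inhibitors, 2 were called up, CLU and TYMS, and none down, with 11 higher and a median of 0.17. The list was not split by the direction of the known response, so these counts do not say whether its genes moved in that direction. Of 25 p53 targets, 22 were higher with a median of 0.24, beside 7121 higher of all 13754 genes tested. Of the 25, 1 was called, FAS, a death receptor. FAS had 3613, 4940, 7399 and 8453 with TSA and 2628, 5844, 4851 and 3838 without (log2 0.49, SE 0.08, adjusted p = 0.0161), and the groups overlapped, but 4 of its 5 probe sets were called up and the fifth was also higher. Its adjusted p as labelled was 0.361. A brighter probe set of GDF15, a secreted stress cytokine, named after its values were seen, had 1654, 2848, 9087 and 9278 with TSA and 799, 6944, 4514 and 1919 without (log2 0.76, adjusted p = 0.0213 exchanged and 0.599 as labelled). The array labelled PJ-34 stands high and that labelled PJ-34/5-aza-dC low, as in the check of the labels.

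Genes of the integrated stress response and amino acid supply were mostly lower, 25 of 30 with a median of −0.22, beside 6633 lower of all 13754 genes tested. On the probe set that stands for it in the list, 1 was called down, XPOT, an exportin of transfer RNA (log2 −0.30, adjusted p = 0.0452). Another probe set of PSPH was also called down (log2 −0.71, adjusted p = 0.0359). CTH, which makes cysteine from cystathionine, fell on 1 of its 2 probe sets, with 362, 223, 350 and 426 with TSA and 1023, 506, 571 and 1156 without (log2 −1.21, adjusted p = 0.0488). SLC7A11, a cystine importer looked at after its values were seen, had 1021, 887, 1094 and 621 with TSA and 3443, 983, 1203 and 5954 without on 1 called probe set of 3, all lower (log2 −1.33, adjusted p = 0.0474). Without TSA the control and the array labelled PJ-34/5-aza-dC were high, and the arrays labelled PJ-34 and 5-aza-dC lay near those with TSA. ASNS, asparagine synthetase, was also highest on those 2 arrays, with 5691, 5041, 5004 and 4584 with TSA and 11052, 4897, 4554 and 15313 without (log2 −0.63, adjusted p = 0.119).

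Among genes of the contractile type, the actin-binding TAGLN, CALD1 and TPM4 fell, while ACTA2, an actin gene, rose. TAGLN, transgelin, had 456, 224, 1123 and 992 with TSA and 1082, 1851, 3435 and 500 without. The groups overlapped, since the arrays that read like 5-aza-dC were high on both sides, and the fall of log2 −1.23 (SE 0.17) passed with the labels exchanged (adjusted p = 0.00462, kept in all 8 fits with an array left out) and not as labelled (adjusted p = 0.326). CALD1, caldesmon, named after its values were seen, had 229, 268, 514 and 329 with TSA and 713, 722, 1094 and 477 without (log2 −1.17, adjusted p = 0.0182). TPM4, a tropomyosin named in the same way, fell by 0.66 (adjusted p = 0.0105). Of 12 tested genes of these and related actin-binding families, also grouped after their values were seen, 8 were lower and 4 higher. Median centring left 6 of the 12 higher, beside 9525 of all 13754 genes tested. ACTA2, smooth muscle actin, had 585, 1034, 1653 and 2097 with TSA and 375, 1449, 1002 and 561 without and rose by 0.69 (adjusted p = 0.0288), while 1 other probe set of it went down. Of 13 tested fibroblast and mesenchyme markers, ACTA2 was called up and TAGLN down on the probe sets that stand for them in the list. Other probe sets of ZEB1, also on this list, were called down (log2 −0.36, adjusted p = 0.0182, and −0.41, adjusted p = 0.0344). Among 18 tubulin and microtubule genes, TUBA1A rose (log2 0.30, adjusted p = 0.0371), TUBE1 fell (log2 −0.69, adjusted p = 0.0383), and 16 were higher.

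None of the ribosomal protein and respiratory chain genes was called on the probe set that stands for it in its list. All 21 ribosomal protein genes were higher, with a median log2 difference of 0.16 and 7 above without overlap (3.69% of all genes tested were above), but quantile normalization left 14 of 21 higher with a median of 0.01. Of 31 respiratory chain genes 27 were higher (median 0.10), and 20 under quantile normalization. Outside the list and named after their values were seen, NDUFA3, COX6A1 and NDUFB9, subunits of the chain, rose by 0.33, 0.29 and 0.24 on the log2 scale. Heat shock genes, cholesterol synthesis genes, MAPK output genes, NF-kB targets, replication-dependent histone genes, metallothioneins, neuronal genes repressed by REST and cancer-testis antigens had no called gene in their lists, with medians from −0.29 for the 10 cancer-testis antigens to 0.13 for the 20 histone genes. BNIP3L, a mitochondrial member of the BCL2 family, fell by 0.48 (adjusted p = 0.0371), the only one called of 15, and CD44 was the only one called of 13 Wnt targets.

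**Figure D4:**
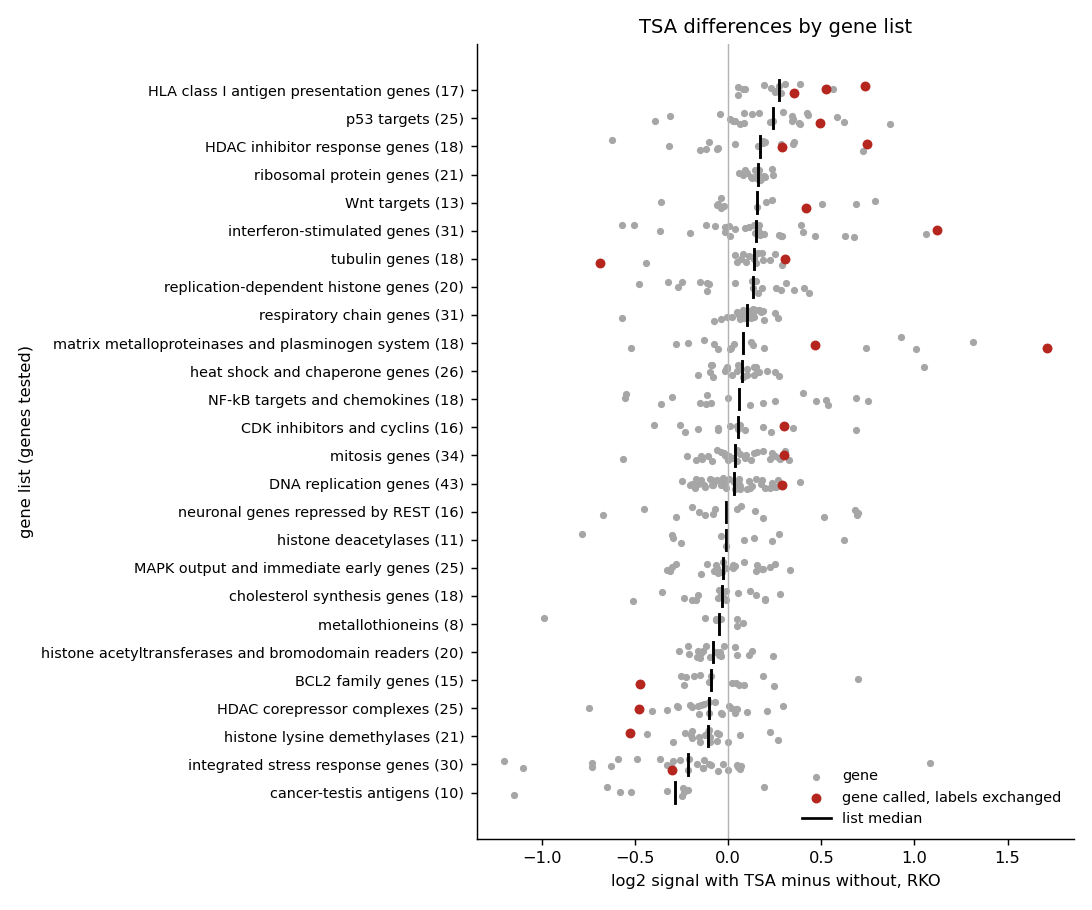
Log2 difference (horizontal axis, signal with TSA minus without, RKO) of every tested gene in 26 gene lists, ordered by list median (black bars). Grey points are genes and red points are genes called with the 2 labels exchanged, and the number tested follows each name. The HLA class I list, at the top, lies wholly above 0, and the cancer-testis list, at the bottom, has 1 gene of 10 above 0.

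Of 10 genes taken from the study's text on its expression data, 6 were tested and none was called for TSA. SFRP1 stands for a symbol printed there as SHRP1, which was taken as a misspelling. The study named these genes for PJ-34 or 5-aza-dC, some of them in HCT116, by fold change. Only CDH1 was also named for TSA, in RKO. SOCS3, an inhibitor of cytokine signalling, had 603, 474, 555 and 727 with TSA and 203, 481, 439 and 322 without (log2 0.77, adjusted p = 0.111). LOX, lysyl oxidase, had 7.6, 66.2, 3120 and 3254 with TSA and 197, 5981, 3837 and 95.6 without (adjusted p = 0.0821), with the high arrays again those that read like 5-aza-dC. CDX2, SFRP1, RANBP9 and PDGFD had adjusted p of 0.863 or more, as had CDKN2A, the p16 gene that the text also mentions (adjusted p = 0.959), and CDH1, UCHL1, SFRP4 and GAGE5 did not pass the filter on signal. The study's statement on CDH1 and TSA was therefore not tested here.

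Whether the TSA difference depended on 5-aza-dC was tested by an interaction term. No probe set passed in either reading (limma, smallest adjusted p 0.947 as labelled and 0.187 exchanged), while 1627 and 1588 had an unadjusted p under 0.05. With 3 residual degrees of freedom, that does not show that the 2 drugs act apart from each other.

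In HCT116 cells TSA gave more calls, 3180 of 35373 probe sets (8.99%), 1473 up (4.16%) and 1707 down (4.83%), in a fit of the same form. Of the 280 probe sets called down in RKO, 264 were tested in HCT116, of which 242 were lower there too and 76 (28.8%) were called down and 0 up, where 4.86% of all probe sets tested in both were called down. Of the 164 called up, 155 were tested in HCT116, of which 109 (70.3%) were higher, 56 (36.1%) were called up and 11 called down, where 4.65% of all were called up. Of all 30830 probe sets tested in both lines, 13764 (44.6%) were higher in HCT116 and 17066 lower. Shared changes include CLU, which rose by 1.38 in HCT116 (adjusted p = 8.29e-05), FAS, which rose by 1.02 (adjusted p = 0.0013), and SLC7A11, which fell by 1.71 (adjusted p = 0.00817). MALAT1 was lower on all 12 probe sets there and called on 9.

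Several of the rises in RKO differed from HCT116 when the difference between the lines was tested itself, with 166 probe sets past the threshold as labelled (0.432% of 38405) and 476 exchanged (1.24%). MMP1 was at 10.9, 33.5, 96.9 and 144 on the HCT116 arrays with TSA and 93.5, 97.7, 150 and 177 without, too low for the filter there. The test of the difference between the lines passed for it (adjusted p = 0.00424 exchanged and 0.0162 as labelled), but 2 of the 4 HCT116 arrays with TSA were at the floor of 50, so its size depends on that floor. TIMP1 fell in HCT116 (log2 −0.56, adjusted p = 0.00466) and rose in RKO, a gap of 1.03 (adjusted p = 0.000499 exchanged and 0.00738 as labelled). CD24 differed by 1.49 (adjusted p = 0.0027 and 0.0138), GPAT3 by 1.62 (adjusted p = 0.00424 and 0.0473), HLA-B by 0.83 (adjusted p = 0.00362 and 0.0317) and HLA-G by 1.13 (adjusted p = 0.0106 and 0.021). The values for CD24, HLA-B and HLA-G are from _x_at probe sets, which can bind related transcripts. E2F1 was the named fall that differed in both readings, by −1.85 (adjusted p = 0.0212 and 0.0405), with a log2 difference of 0.81 in HCT116 that did not pass (adjusted p = 0.0781). For JMJD1C, at −0.83 in HCT116 (adjusted p = 0.0711), the lines differed by −0.16 (adjusted p = 0.875 and 0.89).

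**Figure D5:**
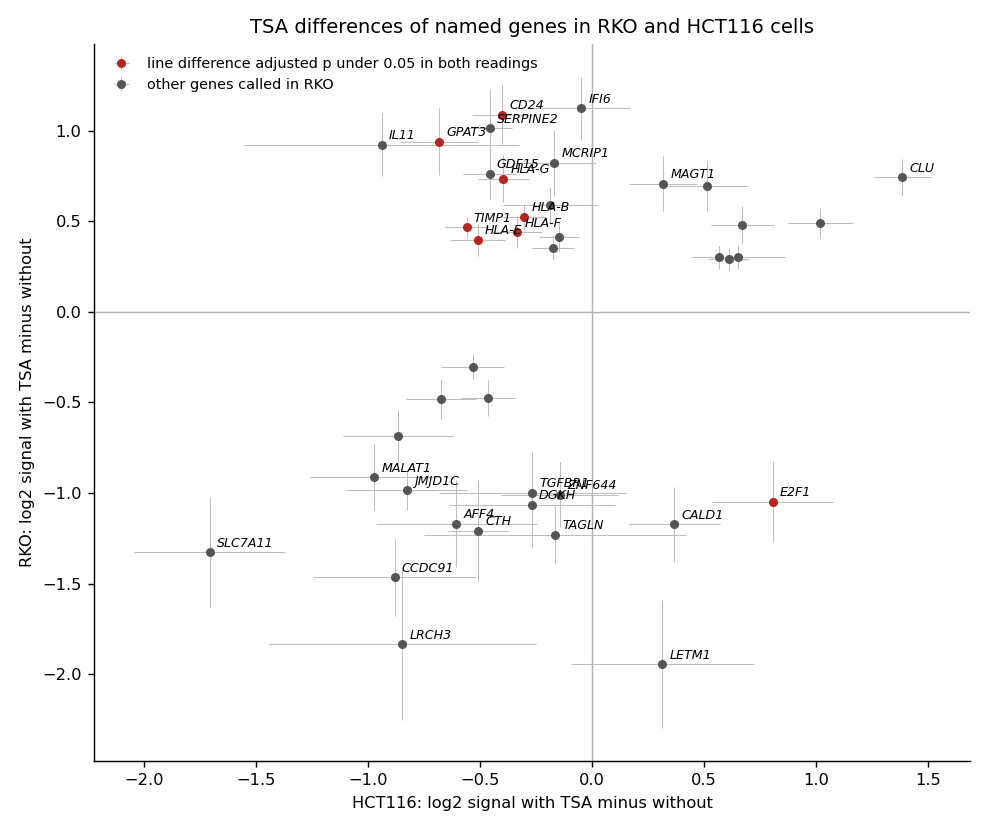
Log2 difference with TSA minus without in RKO (vertical axis) and HCT116 (horizontal axis) for the named genes called in RKO with labels exchanged and tested in HCT116. Bars are standard errors from limma, and red points are genes whose difference between the lines passed in both readings. CLU lies at the right, at 0.74 in RKO and 1.38 in HCT116, and TIMP1, the HLA genes, CD24 and GPAT3 lie at the upper left.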

How the data were processed

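Expression was measured on Affymetrix HG-U133 Plus 2.0 arrays, 1 for each condition. The values the authors deposited are linear signal intensities from the GCOS software, whose version is not given in the sources used here. The trimmed mean came to about 1000.1 on every array, so the arrays had been scaled to a common level, which removes any change in total RNA. No detection calls were used here. Of 54675 probe sets, 62 controls were left out. Gene names came from the platform annotation, in which 41091 of the remaining probe sets have 1 symbol, 1801 several and 11721 none; only those with 1 symbol were named. The labels number every array 1 and name no culture, so the spread may be technical. The sources give more than 1 dose for PJ-34, and none is printed.

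A floor of 50 was applied before taking log2. Probe sets at 100 or more on at least 4 of the 8 arrays of a line were kept. limma 3.58.1 in R 4.3.3 (lmFit, eBayes with a trend) fitted TSA, PJ-34 and 5-aza-dC terms, as labelled and with PJ-34 and PJ-34/5-aza-dC exchanged, with Benjamini-Hochberg adjustment at 0.05. The script was tested on simulated data. The 30 gene lists, the tests and the arrays compared were chosen with earlier results of these data known. A gene in a list stands for its brightest tested probe set, with _x_at ones only where it has no other. Named are genes called as labelled; up to 10 per direction called with labels exchanged, without overlap and with a mean signal of 200 or more; up to 3 per list; those changing between silent and expressed; HDAC genes; genes the study names; and, as stated, some chosen after their values were seen. Genes whose level can show a person's sex were not named. Alternatives were the floor, filter, scaling, variance trend, pair block, all 16 arrays and leaving out arrays.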

Additional observations from a re-analysis of the deposited data

Results flagged for a closer look

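In 16 cases 1 of 4 arrays of a group met Dixon's criterion at 95% for a named gene, on log2 signals after the floor of 50. For LRCH3, PDGFRB and KRT20 the criterion was met with 1 or more of the other arrays raised to that floor, which narrows their spread, so these 3 do not show an array that stands apart. Chance alone flags about 1 in 20 groups, and 131 named probe sets with 2 groups each were looked at. Among the arrays with TSA, the array PJ-34/5-aza-dC/TSA stood apart for MAGT1 (signal 3307, the others 2007 to 2139), NSDHL (3307, the others 2660 to 2710) and SP8 (186, the others 336 to 374), and PDGFRB had 52.3 on it and 18.6 to 32.6 on the others. The array PJ-34/TSA stood apart for HSD17B7 (2918, the others 3402 to 3505), NKD1 (226, the others 312 to 330), ATP5F1C (678, the others 1044 to 1073), FCER1G (36, the others 145 to 174) and RARA (290.0, the others 110 to 128). LRCH3 had 125 on the array 5-aza-dC/TSA and 34.9 to 57.2 on the others. Among the arrays without TSA, the control was the low one for SAMD9 (928, the others 1259 to 1323), HLA-G (6591, the others 9936 to 10592) and HLA-E (9659, the others 13849 to 14063). The array labelled PJ-34/5-aza-dC was the high one for CD44 (12140, the others 9170 to 9442) and CALR (12471, the others 7832 to 8449), and KRT20 had 99.1 on it and 4.8 to 54.7 on the others.

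For 10 named genes the TSA effect differed between the lines in a test of the difference as labelled, RKO minus HCT116 on the log2 scale. The differences were 2.41 for MMP1, a value that rests on HCT116 signals near or under the floor, 1.62 for GPAT3, 1.49 for CD24, 1.26 for DUSP5, 1.13 for HLA-G, 1.03 for TIMP1, 0.91 for HLA-E, 0.83 for HLA-B, 0.78 for HLA-F and −1.85 for E2F1. DUSP5, a phosphatase of ERK kinases, was at a log2 difference of 0.33 in RKO (adjusted p = 0.0689) and fell in HCT116 by 0.93 (adjusted p = 0.00104). All 10 also passed with the labels exchanged.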

How the results depend on the processing

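The log2 difference for TSA does not depend on the reading of the 2 labels, but the calls do. As labelled, the 2 calls became 0 with a floor of 20 or 100, without the filter, with a filter at 200, without the variance trend or in the fit of all 16 arrays, 4 under quantile normalization, 7 under median centring, 9 with the pair block, 5 without both doubtful arrays and 14 with TSA as the only term. With the labels exchanged, the 444 calls became 0 without the filter and 0 without the variance trend, 233 under quantile normalization, 1517 under median centring, 229 with the pair block, 19 in the fit of all 16 arrays and 5 without both doubtful arrays; floors of 20 and 100 and a filter at 200 gave 374 to 519. Leaving out 1 array gave 0 to 78 calls as labelled, 38 to 749 exchanged, and for the interaction 0 to 32 as labelled and 0 to 3 exchanged. The difference between the lines had 166 calls as labelled and 476 exchanged. The probe sets from silent to expressed or the reverse numbered 4, and 1 at the stricter levels. No named gene that was called changed direction under any of these alternatives. The gap between long and short genes in RKO, −0.07 log2 units, was −0.16 among genes with a mean signal above the median, −0.13 over all probe sets, and −0.01 to −0.11 with 1 array left out, alternatives chosen after the data were seen. The cause of these changes was not tested. Genes with signals near 50 are limited by the floor, and their differences are understated.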
